A study of Mus musculus with 10 samples.

Results

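Switching off DNMT3A R882H for 5 days was examined in a mouse model of acute myeloid leukemia, across all genes and in every library. The comparison holds the 2 libraries of mice given doxycycline for 5 days (off) and the 2 libraries of mice on normal chow and water at day 5 (on), which are 4 of the 10 libraries in the series. The other 6 libraries, 4 off and 2 on, were taken at day 14 and are used here for the estimate of spread and for values of the same genes beside those at day 5. All 4 groups carry the same leukemia, called DIN, which was made from fetal liver cells that had received 3 retroviral vectors. The first vector holds DNMT3A R882H behind a tetracycline-regulated promoter, the next IDH2 R140Q with GFP, and the third NRAS G12D together with the tetracycline transactivator (TTA). Cells frozen from moribund mice had been transplanted into Ptprca recipients, and the cells sequenced were cKit+/Cd11b- progenitors that had been sorted out of spleens and marrow. The labels give neither the organ nor the mouse of a library, nor the age of the mice, so the p-values measure only the spread between these libraries, which may be technical. No group received doxycycline without the regulated vector, so loss of DNMT3A R882H and doxycycline itself cannot be told apart.

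DNMT3A is an enzyme that places new methyl groups on cytosines in CpG dinucleotides, and R882H is its most frequent substitution in acute myeloid leukemia. The mutant protein has reduced activity and interferes with the normal enzyme, and mouse stem cells without DNMT3A self-renew at the expense of differentiation. IDH2 R140Q produces 2-hydroxyglutarate, which inhibits the enzymes that remove DNA methylation, and NRAS G12D keeps growth signalling on. The transactivator binds the regulated promoter only without doxycycline, so the drug in chow and water lowers transcription of the mutant. The title of the series names heme synthesis and cuproptosis, a form of cell death in which copper binds lipoylated mitochondrial enzymes. Gene lists for red cell differentiation, heme, iron, copper and lipoylation were therefore described beside lists for other lineages and cell functions.

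RNA was measured from the 3′ ends of transcripts (QuantSeq), with 9864398 and 11973117 counts in off replicates 1 and 2, and 9292644 and 13327629 in on replicates 1 and 2. Levels are CPM, a gene's counts relative to the total of its library, scaled by the TMM method. This scale compares a gene between libraries, not one gene with another. Over the 15916 genes tested, the off libraries correlated at 0.973 on the log2 CPM scale, the on libraries at 0.953, and an off with an on library at 0.945 to 0.961. The on libraries differed from each other by at least 1 log2 unit in 2508 genes, against 1363 genes for the off libraries and 1344 for the off mean against the on mean. The spread between the on libraries was thus wider than that between the off libraries. Mouse Dnmt3a was at 65.6 and 50.2 CPM off and 52.8 and 51.2 on, which does not check the vector, whose 3′ tags need not map to the mouse gene. Kit, the marker of the sort, was at 43.3 and 40.3 CPM off and 51.3 and 56.2 on (edgeR adjusted p = 0.284). Itgam, which encodes Cd11b, was at 14.6 and 3.17 CPM off and 6.74 and 3.08 on, so off replicate 1 stood above the rest. Idh2 (log2 fold change −0.59 ± 0.29 SE) and Nras (0.12 ± 0.14 SE), the mouse copies of the other vector genes, also did not pass the test.

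At day 5, 77 of 15916 genes differed between off and on at an adjusted p under 0.05 (edgeR quasi-likelihood test, Benjamini-Hochberg over all genes), which is 0.484% of the genes tested. Of these, 59 were higher off (0.371%) and 18 were lower off (0.113%), and they are named called genes here. Among them were a fall of Chd4, the ATPase of the NuRD chromatin remodelling complex, and a rise of Cbx6, a chromobox subunit of polycomb repressive complex 1. Red cell genes, among them Car1, Rhag and Epor, were higher in the off libraries, and to unequal extents. So were 5 genes of protein folding and glycosylation in the endoplasmic reticulum, whereas the lymphoid gene Dntt and the protease inhibitors Serpina3g and Serpinb1a fell. In each of the 77 genes both off libraries lay on the same side of both on libraries, as they did in 19.3% of all tested genes in the higher direction and 20.9% in the lower. The called log2 fold changes ran from −5.16 to −0.75 and from 0.83 to 7.45, while the median over all tested genes was −0.02.

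The number of calls rests on how the spread is estimated, since 2 libraries against 2 give an exact permutation test a smallest two-sided p of 0.33. With the 4 day 5 libraries fitted alone, 0 genes were called by edgeR (1294 had an unadjusted p under 0.05), and limma voom on all 10 libraries also called 0 (2323 unadjusted), whereas DESeq2 called 472 (3.28% of the 14373 genes to which it gave an adjusted p). In the gene lists described here limma voom called 0 genes. Leaving out single libraries gave 0 calls without day 14 off replicate 1 or 4, 9 without day 14 off replicate 2 or 3 or day 5 on replicate 2, and 2 without day 5 off replicate 2. It gave 145 without day 5 off replicate 1 and 304 without day 5 on replicate 1. All 77 genes kept their direction, and an unadjusted p under 0.05, in each of the 21 other settings in which they had a value.

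**Figure D1:**
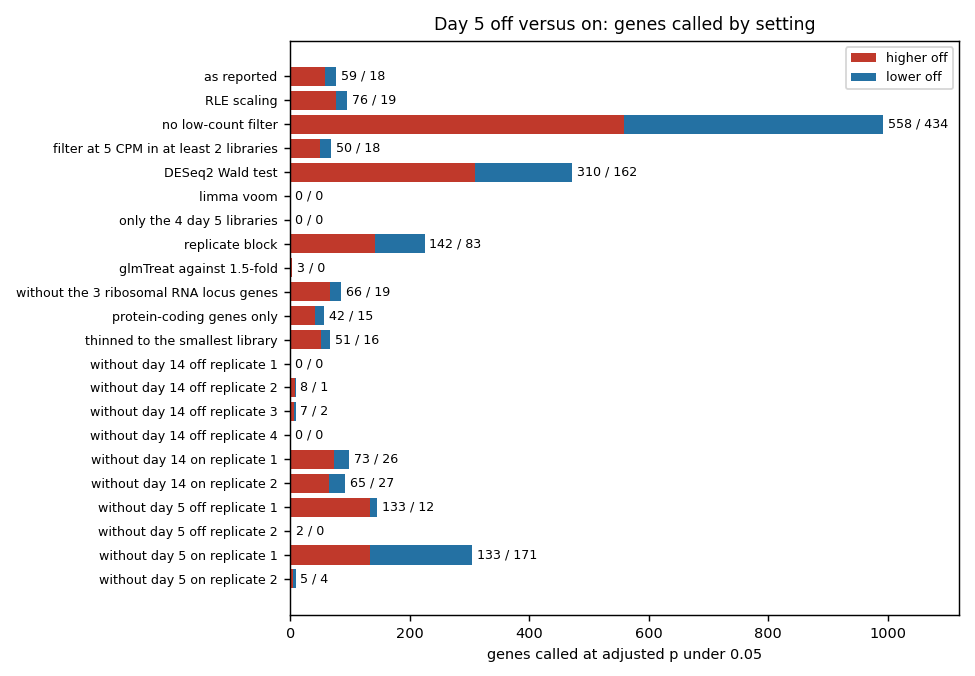
Genes called at day 5 (adjusted p under 0.05, linear axis) under the reported fit and 21 other settings, with genes higher off in red and lower off in blue and both counts printed beside each bar. The reported fit calls 59 higher and 18 lower, the fit without a filter on low counts calls 992 in all, and 4 settings call none.

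Among the falls, Chd4 was at 349 and 309 CPM in the off libraries and at 1137 and 2629 CPM in the on libraries, a log2 fold change of −2.52 ± 0.33 SE (adjusted p = 0.0227). The on libraries differed more than 2-fold from each other, and both were more than 3 times the higher off library. Gm23751, a small Cajal body RNA gene that lies inside Chd4 on the same strand of chromosome 6 (125121724 to 125121859, GRCm38), was at 1.86 and 1.05 CPM off and 8.88 and 16.1 on. Its counts and those of Chd4 may share reads. The other 13 tested members of the NuRD list were not called and lay between −1.13 (Mta3) and 0.48 (Mbd2) on the log2 scale. Chd3, the alternative ATPase of the complex, was at 110 and 99.3 CPM off and 102 and 105 on.

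Dntt, the polymerase that adds bases at the joints of rearranging antigen receptor genes in early lymphoid cells, was at 0.93 and 0.73 CPM off and 13.3 and 14.3 on (log2 fold change −4.05 ± 0.61 SE, adjusted p = 0.0322). Cd276, a member of the B7 family of immune ligands, was at 1.96 and 1.87 CPM off and 10.8 and 15.4 on (−2.77 ± 0.38 SE). Lair1, an inhibitory receptor for collagen on blood cells, was at 15.9 and 10.4 CPM off and 37.1 and 59.2 on (−1.88 ± 0.29 SE). On the log scale, the gap between the groups was wider in these 3 genes than the gap within either group. Serpina3g was at 15.3 and 9.90 CPM off and 34.2 and 38.1 on, and Serpinb1a, an inhibitor of neutrophil granule proteases, at 58.5 and 45.7 off and 114 and 138 on. They were 2 of the 14 tested serpins, of which 0 were called higher and 5 had a positive fold change. H2-Q6, a class I molecule of the Qa region, was at 38.2 and 34.8 CPM off and 67.6 and 75.0 on. It was the called member of the 16 class I antigen presentation genes, whose near-identical copies make single-gene counts uncertain. Gmfg (a regulator of actin branching), Selenop (a secreted selenium carrier), Pdp1 (a phosphatase that activates pyruvate dehydrogenase), Mtg2 (a GTPase of the mitochondrial ribosome), AB124611 and Dennd5b fell too, with log2 fold changes from −1.44 to −0.75. The off libraries of all 18 called falls agreed within 1 log2 unit.

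The CpG content of the promoters of called genes is given because DNMT3A acts on CpG, and differences in it were not tested. In the 250 bases before the RefSeq start (GRCm38.p6, 9188 of the tested genes matched), the median over tested genes was 16 CpG dinucleotides and 14.5% had 5 or fewer. The 10 of 18 called falls with a matched promoter had a median of 6.5, and 5 of these 10 had 5 or fewer. The 37 of 59 called rises with one had a median of 18, and 9 of them (24.3%) had 5 or fewer. Among the 9 matched rises whose off libraries lay at least 1 log2 unit apart the median was 4 and 5 of the 9 had 5 or fewer. The methylation of these bases was not measured in these libraries. The promoters of 3 falls are shown, with CG in capitals, because 2 of them hold few such dinucleotides and that of Chd4 holds 12. Dntt lies at chr19:41029025-41029274 on the plus strand, Lair1 at chr7:4063205-4063454 on the minus strand and Chd4 at chr6:125095731-125095980 on the plus strand.
Dntt: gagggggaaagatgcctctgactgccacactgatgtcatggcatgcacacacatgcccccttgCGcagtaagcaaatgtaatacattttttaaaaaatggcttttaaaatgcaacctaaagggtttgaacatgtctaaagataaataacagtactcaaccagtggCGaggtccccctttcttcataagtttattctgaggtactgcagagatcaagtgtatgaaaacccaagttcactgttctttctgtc
Lair1: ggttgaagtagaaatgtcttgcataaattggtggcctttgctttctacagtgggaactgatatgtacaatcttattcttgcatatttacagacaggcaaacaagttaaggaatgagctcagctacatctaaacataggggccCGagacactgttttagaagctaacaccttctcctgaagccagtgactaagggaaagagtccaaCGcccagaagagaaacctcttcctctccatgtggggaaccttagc
Chd4: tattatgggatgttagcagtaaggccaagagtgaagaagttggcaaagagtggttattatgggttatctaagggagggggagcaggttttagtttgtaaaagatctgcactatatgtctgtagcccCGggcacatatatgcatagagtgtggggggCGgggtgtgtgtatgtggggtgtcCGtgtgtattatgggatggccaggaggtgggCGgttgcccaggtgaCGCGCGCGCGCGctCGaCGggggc

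Of the 59 rises, 46 had off libraries within 1 log2 unit of each other. Cbx6 was at 49.7 and 55.7 CPM off and 7.98 and 2.18 on (3.43 ± 0.45 SE, adjusted p = 0.0227). It was the called member among 18 polycomb genes, whose median was 0.20. Both off libraries lay above both on libraries in 10 of the 18 and below in 2, against 19.3% and 20.9% of all tested genes. An unadjusted p under 0.05 was seen for 3 higher and 1 lower, against 7.25% and 7.67% of all genes. Cbx7 (13.4 and 18.7 CPM off, log2 fold change −0.37 ± 0.32 SE) was not called. Samsn1, an adaptor protein of blood cells, was at 46.7 and 43.3 CPM off and 21.2 and 18.1 on (1.20 ± 0.14 SE), and Cd81, a tetraspanin, at 38.7 and 38.8 off and 15.3 and 10.2 on (1.61 ± 0.22 SE). In Cbx6, Samsn1 and Cd81 the off libraries were close to each other and the groups did not overlap. The on libraries of Cbx6 were more than 1 log2 unit apart. Sfxn1, a serine carrier of the mitochondrial inner membrane, was at 175 and 213 CPM off and 76.4 and 40.1 on. Mthfd2, an enzyme of mitochondrial folate metabolism, was at 87.7 and 71.5 CPM off and 42.3 and 35.0 on. Slc11a2, the divalent metal transporter that moves iron out of endosomes, was at 20.005 and 30.8 CPM off and 9.33 and 9.76 on (1.41 ± 0.22 SE). These 3 genes thus lay at least 1.5 times higher in each off library than in each on library. Tnfaip2, Zdhhc2 (a palmitoyltransferase), Stx2 (a syntaxin), Vopp1, Tada2a (an adaptor of histone acetyltransferases), Hnrnpll (a splicing regulator), Oat (ornithine aminotransferase), Tm7sf3 and Klhl23 rose by 1.24 to 2.43 on the log2 scale.

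The following rises were chosen after their values were seen. Dlg4, a scaffold known from synapses, was at 7.32 and 4.71 CPM off and 0.11 and 0.15 on. Mpzl2, a cell adhesion molecule, was at 25.1 and 15.01 CPM off and 1.57 and 2.18 on, but its antisense partner Gm48840 had counts within 10% of its own, and strand use in counting is not given in the sources used here. Gm45774, at 49.8 and 76.9 CPM off and 11.5 and 21.9 on, overlaps the metallothionein gene Mt2 on the other strand, and reads in the overlap cannot be assigned without strand. Genes without a count in either on library were Abcg4 (at least 14.5-fold higher off, taking 3 counts over the on group as the floor), Asb17 (at least 9.08-fold) and Ccdc9b (at least 6.73-fold).

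**Figure D2:**
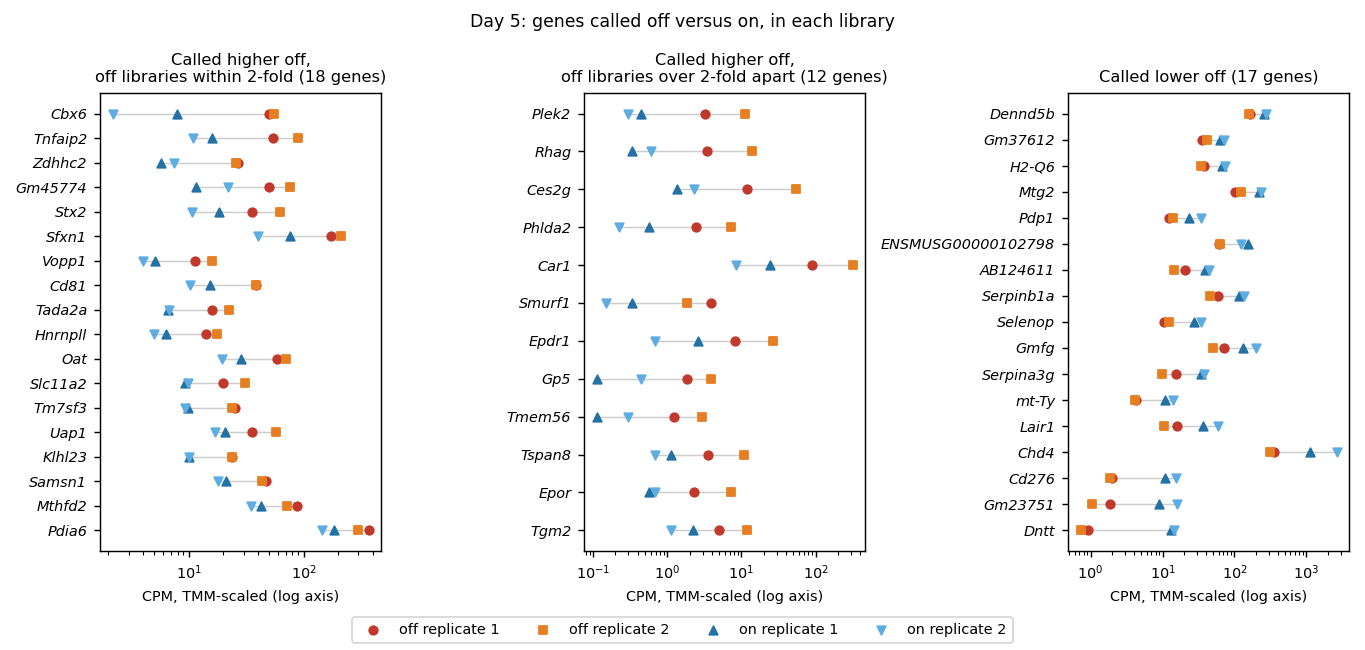
Level of called genes in each of the 4 day 5 libraries (TMM-scaled CPM, log axis), split into even rises of the named-gene rule, rises whose off libraries lie over 1 log2 unit apart, and falls, for genes with a count in every library. Off replicate 2 (orange squares) is above off replicate 1 (red circles) in 11 of the 12 genes of the middle panel, Smurf1 being the exception, while in the right panel both lie below the on libraries (triangles).

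The other 13 rises were uneven, with off libraries at least 1 log2 unit apart, and 12 of them were higher in off replicate 2. Car1, a carbonic anhydrase abundant in red cells, was at 89.4 and 314 CPM in off replicates 1 and 2 and at 23.9 and 8.48 on (3.66 ± 0.59 SE, adjusted p = 0.0374). Rhag, a membrane protein of the Rh complex, was at 3.40 and 14.0 CPM off and 0.34 and 0.60 on (4.14 ± 0.66 SE). Epor, the receptor for erythropoietin, was at 2.27 and 7.14 CPM off and 0.56 and 0.68 on (2.91 ± 0.54 SE). In all 3, off replicate 1 was already above both on libraries, and off replicate 2 was at least 3 times higher again. Without off replicate 2 their log2 fold changes were 2.48 for Car1, 2.77 for Rhag and 1.83 for Epor, none of them called, and without off replicate 1 they were 4.32, 4.81 and 3.49, all called. Gp5, a platelet glycoprotein, was at 1.86 and 3.90 CPM off and 0.11 and 0.45 on, close to the floor of 3 counts (0.225 to 0.323 CPM) in the on libraries. Ces2g, a carboxylesterase, was at 12.0 and 53.6 CPM off and 1.35 and 2.33 on. The uneven rises also held Plek2, Phlda2, Epdr1, Tmem56, Tspan8, Tgm2 and Abcg4. Smurf1, a ubiquitin ligase, was the one with the opposite order, at 3.92 and 1.87 CPM off.

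**Figure D3:**
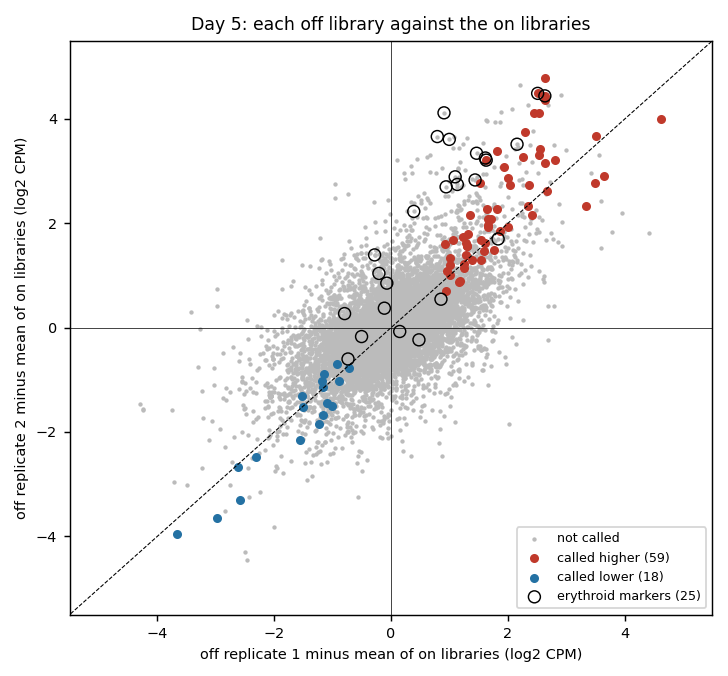
Each tested gene by its log2 CPM in off replicate 1 (horizontal) and off replicate 2 (vertical), both minus the mean of the on libraries. The 59 called rises are red, the 18 called falls blue, and the 25 erythroid markers circled, most of which lie above the dashed line of equal change.

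The sequence AGATAA or TGATAA, which is bound by GATA factors, was searched on both strands of the 250 bases before each start. It was found in 9.2% of all matched promoters and in 2 of the 10 called falls with a matched promoter (Dntt and Chd4). Among the rises with a matched promoter, it was found in 2 of 28 even rises (7.14%) and in 4 of the 9 uneven rises (44.4%). These 4 promoters are printed with the matches in capitals, on the strand of the gene, because they belong to genes that were more than 2-fold higher in off replicate 2 than in off replicate 1. Rhag lies at chr17:40810899-40811148 on the plus strand, Epor at chr9:21963577-21963826 on the minus strand, Gp5 at chr16:30310782-30311031 on the minus strand and Ces2g at chr8:104961468-104961717 on the plus strand. A match describes the letters and is not evidence of binding.
Rhag: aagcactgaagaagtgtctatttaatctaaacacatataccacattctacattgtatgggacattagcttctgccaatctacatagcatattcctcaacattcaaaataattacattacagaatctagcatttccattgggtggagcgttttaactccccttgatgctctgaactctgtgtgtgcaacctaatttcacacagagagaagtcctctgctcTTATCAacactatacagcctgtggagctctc
Epor: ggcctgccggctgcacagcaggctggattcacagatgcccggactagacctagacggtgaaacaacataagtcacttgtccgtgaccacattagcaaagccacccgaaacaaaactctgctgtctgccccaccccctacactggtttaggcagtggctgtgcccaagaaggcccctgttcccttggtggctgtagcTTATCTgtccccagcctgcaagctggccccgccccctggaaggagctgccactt
Gp5: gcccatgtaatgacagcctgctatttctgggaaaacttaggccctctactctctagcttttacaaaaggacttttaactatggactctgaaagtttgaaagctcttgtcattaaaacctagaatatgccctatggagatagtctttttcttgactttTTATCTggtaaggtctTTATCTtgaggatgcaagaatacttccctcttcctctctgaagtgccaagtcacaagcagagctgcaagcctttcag
Ces2g: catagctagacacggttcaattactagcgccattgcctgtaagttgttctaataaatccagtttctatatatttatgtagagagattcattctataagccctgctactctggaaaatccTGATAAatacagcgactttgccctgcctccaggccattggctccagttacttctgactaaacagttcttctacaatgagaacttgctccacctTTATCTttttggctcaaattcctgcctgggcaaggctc

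Most red cell markers were higher off than on, and off replicate 2 stood above off replicate 1. Of 25 tested erythroid markers, 3 were called (those 3 above), 15 had an unadjusted p under 0.05 in the higher direction and 1 in the lower, against 7.25% and 7.67% of all tested genes. The median log2 fold change of the list was 2.13, against −0.02 over all genes. Off replicate 1 was above both on libraries in 16 of the 25 markers and off replicate 2 in 20, against 32.9% and 30.0% of all genes. In 15 markers both off libraries lay above both on and in 1 below, against 19.3% and 20.9% of all genes. The median fell to 0.95 without off replicate 2 (0 called) and rose to 2.76 without off replicate 1 (14 called). Aqp1, the water channel of the red cell membrane, was at 21.3 and 131 CPM off and 13.2 and 8.56 on, so it was high mainly in off replicate 2. Ank1 (ankyrin) was at 18.1 and 16.6 CPM off and 2.81 and 8.71 on, a gene in which the off libraries were alike. Slc4a1, the anion exchanger of late erythroid cells, was at 2.99 and 3.81 CPM off and 2.59 and 7.13 on. In bulk samples such as these, a larger share of erythroid cells and more RNA of these genes per cell cannot be told apart.

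**Figure D4:**
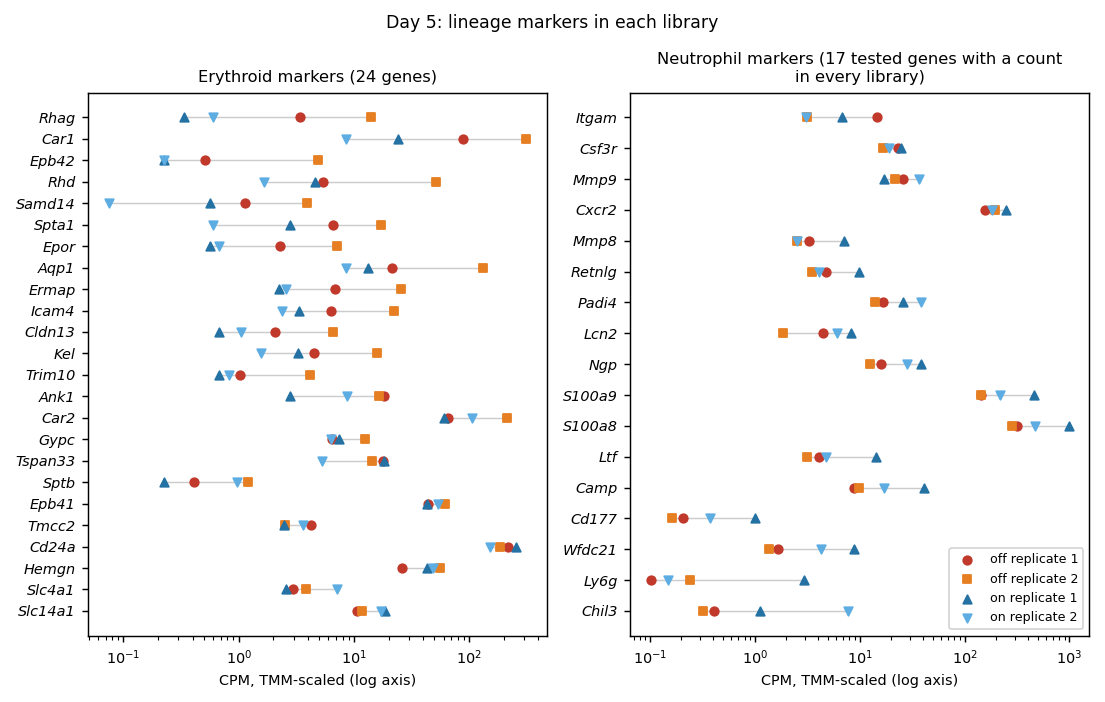
Erythroid and neutrophil marker genes in the 4 day 5 libraries (TMM-scaled CPM, log axis). On the left, where 24 erythroid markers are plotted, off replicate 2 (orange) lies above both on libraries (blue) in 19 and off replicate 1 (red) in 15. On the right most neutrophil markers lie lower in both off libraries.

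None of the 16 tested erythroid transcription factors was called by edgeR and 4 by DESeq2 (Gata1, Klf1, Lmo2 and Tal1), all higher. The median log2 fold change of the 16 was 0.13, with 9 positive and 7 negative. In 5 of them both off libraries lay above both on and in 2 below, against 19.3% and 20.9% of all genes. An unadjusted p under 0.05 was seen for 4 higher and 1 lower, against 7.25% and 7.67% of all genes. Klf1, which activates globin and many red cell genes, was at 5.36 and 23.1 CPM off and 2.14 and 0.83 on (3.36 ± 0.66 SE, adjusted p = 0.0616). Gata1, the central erythroid factor, was at 5.16 and 21.1 CPM off and 3.484 and 1.35 on. Lmo2, a bridging protein of the same complex, was at 76.1 and 56.9 CPM off and 41.7 and 30.0 on. Klf1 and Gata1 had the order of Car1 and Rhag, with off replicate 2 above off replicate 1, and Lmo2 had the reverse order. Globin RNA was not higher off as a list, though off replicate 2 was above off replicate 1 in all 5 tested globins. Of these 5, 0 were called by edgeR or DESeq2 and 0 had an unadjusted p under 0.05. The median was −0.48 (0.33 without on replicate 2), and Hbb-bt was at 580 and 1096 CPM off and 975 and 2416 on.

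Heme is built from glycine and succinyl-CoA by enzymes that start and end in mitochondria. None of the 9 tested enzymes was called at day 5 by edgeR and 3 were by DESeq2 (2 higher, 1 lower). An unadjusted p under 0.05 was seen for 2 higher and 1 lower, against 7.25% and 7.67% of all genes. The median was 0.25 (0.58 without off replicate 1). Cpox, which makes protoporphyrinogen, was at 58.7 and 122 CPM off and 35.2 and 26.8 on (1.55 ± 0.30 SE, adjusted p = 0.0563). Both off libraries were above both on libraries. Alas2, the erythroid form of the first enzyme, was at 1.13 and 1.38 CPM off and 2.36 and 5.33 on (−1.63 ± 0.48 SE, adjusted p = 0.167). Alas1, the form used outside red cells, was at 15.6 and 10.2 CPM off and 15.1 and 9.01 on. Neither form of the first enzyme was called. Alad was at 20.7 and 48.5 CPM off and 23.2 and 34.9 on, and Urod at 16.9 and 26.1 off and 18.4 and 19.6 on, so for both the groups overlapped. Log2 fold changes were 0.22 ± 0.14 SE for Ppox, 0.28 ± 0.31 SE for Fech, which inserts the iron, and 0.87 ± 0.51 SE for Uros. At day 14, 6 of the 9 enzymes were called higher and the median was 1.53.

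Iron genes lay mostly higher off (13 of 15, median 0.33), and copper genes moved little as a list. Of 15 genes of iron uptake, storage and sensing, Slc11a2 was called by edgeR, and Slc11a2, Slc40a1 and Steap3 by DESeq2, all higher. An unadjusted p under 0.05 was seen for 4 higher and 0 lower, against 7.25% and 7.67% of all genes. Both off libraries lay above both on libraries in 7 and below in 0, against 19.3% and 20.9% of all genes. Tfrc, the transferrin receptor, was at 111 and 203 CPM off and 110 and 172 on, with overlapping groups. None of 18 copper handling genes was called by edgeR, 1 was by DESeq2 and 1 had an unadjusted p under 0.05. In both cases that gene was Mt2, a metallothionein that binds copper and zinc, at 194 and 382 CPM off and 43.6 and 114 on (1.86 ± 0.42 SE, adjusted p = 0.0961). Slc31a1, the main copper importer, was at 20.2 and 20.1 CPM off and 15.1 and 17.0 on. None of 18 genes of protein lipoylation was called by edgeR or DESeq2, 1 was higher and 2 were lower at an unadjusted p under 0.05, and the median was −0.03. Fdx1, the ferredoxin needed for lipoylation, was at 30.7 and 30.1 CPM off and 31.8 and 39.5 on, and Lias, which makes lipoyl groups, at 42.1 and 45.9 off and 37.2 and 51.1 on.

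Genes for folding and glycosylating proteins in the endoplasmic reticulum were higher in both off libraries. The list was added after the called genes had been seen, because 5 of its 36 tested members were among them, so its direction is not independent of those 5. These were Pdia6, a disulfide isomerase (368 and 300 CPM off, 184 and 145 on), Stt3a, a catalytic subunit of the oligosaccharyltransferase (78.4 and 66.5 off, 39.7 and 41.7 on), Uap1, which makes UDP-N-acetylglucosamine, Prdx4, a peroxiredoxin, and Creb3l2, a transcription factor held in the membrane. Among the other 31 members, 0 were called by edgeR and 8 by DESeq2, all higher, and the median was 0.41. Both off libraries lay above both on in 24 and below in 0, against 19.3% and 20.9% of all tested genes. An unadjusted p under 0.05 was seen for 16 higher and 0 lower, against 7.25% and 7.67% of all genes. Hspa5 (BiP), the main chaperone of the compartment, was at 1470 and 1205 CPM off and 822 and 659 on (0.85 ± 0.18 SE, adjusted p = 0.066). Hyou1, a related chaperone, was at 140 and 110 CPM off and 64.4 and 68.3 on (adjusted p = 0.0502). Sdf2l1 was at 60.6 and 43.5 CPM off and 22.6 and 8.94 on. In 21 of the 25 red cell markers off replicate 2 was above off replicate 1, and here that was so in 4 of the 36 genes. The median over all 36 stayed positive when either off library was left out (0.38 without off replicate 1 and 0.68 without off replicate 2). Among 34 tested targets of the related factor Atf4 the median was 0.03, with 19 positive and 15 negative fold changes. Mthfd2 was called by edgeR, and DESeq2 called 3 (2 higher and 1 lower). At an unadjusted p under 0.05, 8 were higher and 3 lower, against 7.25% and 7.67% of all genes. In 10 of the 34 both off libraries lay above both on and in 5 below, against 19.3% and 20.9% of all genes.

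Ribosomal protein genes were slightly lower off. None of 81 tested genes of the cytosolic ribosome was called by edgeR and 4 were by DESeq2, all lower. An unadjusted p under 0.05 was seen for 50 lower and 0 higher, against 7.67% and 7.25% of all genes. In 70 both off libraries lay below both on libraries, against 20.9% of all genes. The median log2 fold change was −0.34, and it lay between −0.47 and −0.21 when single libraries were left out. Rps24 was at 2454 and 2742 CPM off and 3760 and 3929 on (−0.57 ± 0.14 SE, adjusted p = 0.106). Rpl28 was at 440 and 477 CPM off and 409 and 448 on, with overlapping groups. The 168 tested pseudogenes of this family (0 called by edgeR and 4 by DESeq2, all lower) had a median of −0.32, and reads that fit a gene and its copies may have been split between them. The genes of mitochondrial ribosomal proteins had a median of 0.04 (80 tested, 0 called by edgeR or DESeq2, 3 higher and 1 lower at an unadjusted p under 0.05).

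The sort was for cKit-positive, Cd11b-negative cells, yet markers of mature neutrophils were measured in all 4 libraries and were lower off. Of 18 tested, 0 were called by edgeR and 5 by DESeq2, all lower, and the median was −1.23. In 10 the level was lower at an unadjusted p under 0.05, against 7.67% of all genes. In 11 both off libraries lay below both on, against 20.9% of all genes. Without on replicate 1 the median was −0.67. S100a8, a calcium-binding protein of neutrophils, was at 315 and 282 CPM off and 980 and 471 on. The summed level of the 18 markers was 727 and 733 CPM off and 1816 and 1046 on, before scaling by TMM. These levels moved with the group like the fall of Serpinb1a, and their part in that and other falls was not tested. Azurophil granule genes of granulocyte progenitors divided the off libraries instead: Mpo was at 180 and 46.1 CPM off and 50.7 and 75.4 on, and Prtn3 at 87.8 and 22.2 off and 28.7 and 29.7 on. Of the 8 tested genes of that list 0 were called by edgeR or DESeq2 and 1 had an unadjusted p under 0.05, and the median was 0.58, 1.18 without off replicate 2 and −0.48 without off replicate 1, so it turned with that library. Off replicate 1 was thus the higher off library in myeloid progenitor genes, and off replicate 2 in red cell genes.

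Several lists of markers of other cells had small sums or differed within a group. Monocyte markers (0 of 15 called by edgeR or DESeq2, median 0.07) summed to 3554 and 2237 CPM off and 3316 and 1548 on, and dendritic cell and class II genes (0 of 13 called by edgeR and 1 by DESeq2, median 0.36, −0.10 without on replicate 2) to 6175.5 and 4633 off and 5539 and 2964 on. In both lists the sums of the groups overlapped. Of 12 tested macrophage markers 0 were called by edgeR or DESeq2, and the median was −0.89 (4 positive and 8 negative). At an unadjusted p under 0.05, 3 were lower and 0 higher, against 7.67% and 7.25% of all genes. Levels of these 12 were low, with a mean log2 CPM of 0.04 and −0.16 off and 0.67 and 0.43 on. Before scaling by TMM, summed levels were 8.21 to 12.1 CPM over 11 B cell markers, 22.1 to 33.0 over 14 macrophage markers and 21.4 to 40.4 over 8 markers of stroma and endothelium, where Col3a1 and Kdr were at 0 in all 4 libraries. The sum of 10 mast cell and basophil markers was 31.9 and 27.1 CPM off and 23.03 and 6.15 on, with Prss34, Tpsab1 and Tpsb2 at 0 in all 4 (0 of 5 tested called by edgeR and 1 by DESeq2). The 16 T and NK cell markers (0 of 14 tested called by edgeR and 1 by DESeq2) summed to 199 and 279 CPM off and 230 and 141 on. Within that list Cd8a, singled out after its values were seen, was at 89.6 and 90.3 CPM off and 32.0 and 23.1 on (1.71 ± 0.33 SE, adjusted p = 0.0575). Of 23 stem and progenitor genes 0 were called by edgeR and 2 by DESeq2 (Gata2 higher and Ikzf1 lower). The median of the 23 was −0.31, with 8 positive and 15 negative fold changes. At an unadjusted p under 0.05, 2 were higher and 3 lower, against 7.25% and 7.67% of all genes. In 2 of the 23 both off libraries lay above both on and in 7 below, against 19.3% and 20.9% of all genes. Gata2, a factor of stem and progenitor cells, was at 30.3 and 17.7 CPM off and 8.43 and 5.56 on (adjusted p = 0.0545), and Cd34 at 40.0 and 18.9 off and 52.6 and 84.0 on.

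Genes of DNA replication (21 of 28) and mitosis (17 of 20) lay mostly higher off at day 5, with small medians. Of 28 DNA replication genes 9 were higher and 1 lower at an unadjusted p under 0.05 (median 0.26). Of 20 mitosis genes 4 were higher and 1 lower (median 0.32). The shares over all genes were 7.25% higher and 7.67% lower. In 14 replication and 10 mitosis genes both off libraries lay above both on, against 19.3% of all genes. In 1 gene of each list they lay below, against 20.9% of all genes. In either list 0 were called by edgeR, and DESeq2 called 2 replication genes (Ccne1 and Rrm1) and 0 mitosis genes. Ccne1, a cyclin of the entry into S phase, was at 9.49 and 13.1 CPM off and 5.62 and 6.38 on. The replication-dependent histone genes had a median of −0.29 (66 tested, 0 called by edgeR and 1 by DESeq2, 1 higher and 11 lower unadjusted), which turned to 0.09 without on replicate 1. At day 14 the medians of these lists were 1.15, 1.39 and 1.09.

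**Figure D5:**
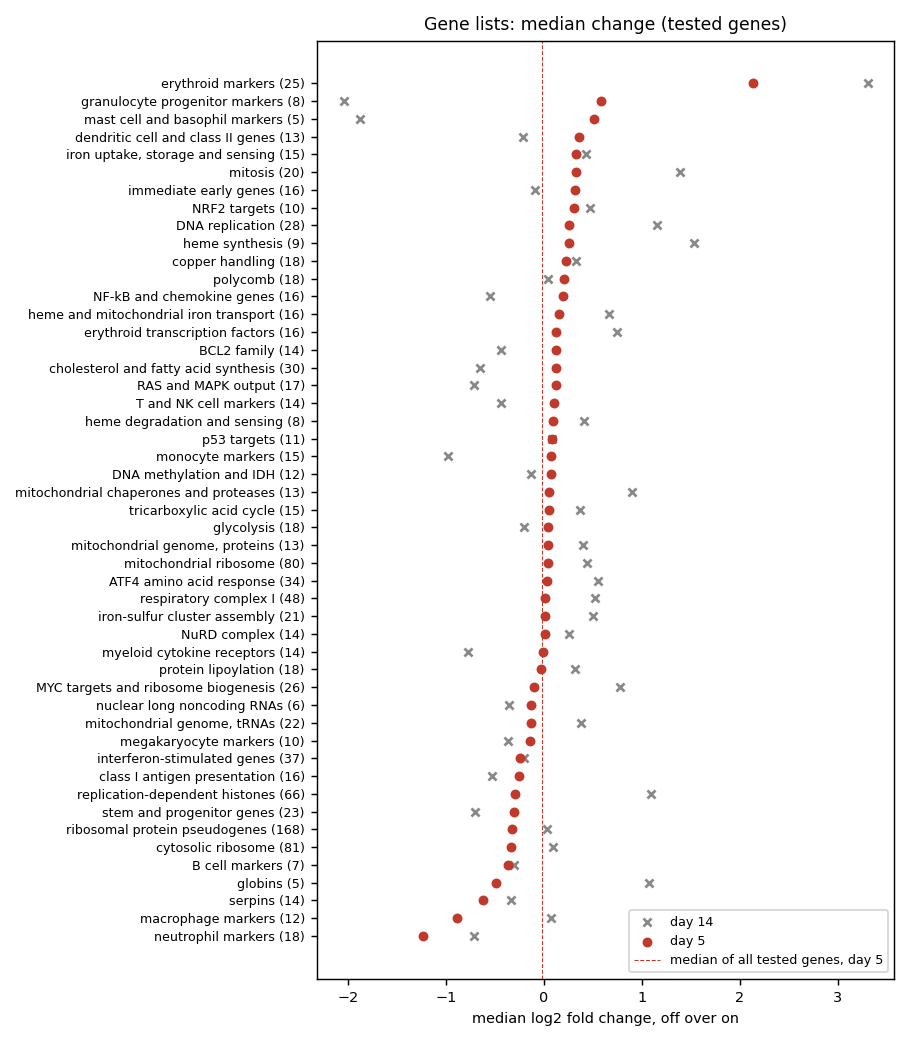
Median log2 fold change, off over on, at day 5 (red circles) and day 14 (grey crosses) of each gene list with at least 5 tested genes. The endoplasmic reticulum list, which was added after the values were seen, is not plotted. The number of tested genes is in brackets, and the day 5 median of all tested genes is a dashed line. Erythroid markers stand farthest right at day 5 (2.13) and neutrophil markers farthest left (−1.23).

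Beside the values at day 14, which come from other libraries, most day 5 calls had the same sign. Of the 77 genes, 68 (88.3%) were called in the same direction at day 14 and 0 in the opposite direction. Of all tested genes, 31.8% were called at day 14, 16.9% higher and 14.9% lower. Both days were tested in the same fit with a shared estimate of each gene's spread, so their calls are not independent of each other. The 68 were 55 of the 59 rises (93.2%) and 13 of the 18 falls (72.2%), and they made up 1.34% of the day 14 calls. In 50 genes the fold change was larger at day 14, and in 12 the difference between the days itself was called, against 3.06% of all genes (1.65% higher and 1.41% lower). Chd4 was at a log2 fold change of −2.82 at day 14, Dntt at −4.19, Cbx6 at 4.67 and Car1 at 6.65. The endoplasmic reticulum list had a median of 0.50 at day 5 and 0.32 at day 14, the ribosomal proteins −0.34 and 0.09, and the granulocyte progenitor genes 0.58 and −2.05. These lists differed between the days by their medians, which were not tested.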

How the data were processed

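The authors deposited raw read counts per gene for 10 libraries, and per the file headers each column is one sample. Per the labels' protocols the libraries were QuantSeq 3′ libraries sequenced as single-end reads. Per the submitters' processing notes the build was mm10 and the tools included HISAT2 2.0.4, Subread 2.0.0 and featureCounts, next to cutadapt 1.14, bcl2fastq 2.17.1.14, limma 3.48.3 and edgeR 3.34.0. Their settings and the use of strand were not given in the sources used here. Counting at the 3′ end makes the values depend on the annotated ends of transcripts, and genes that overlap or share sequence cannot be told apart.

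The deposited counts were fitted with edgeR 4.0.16 in R 4.3.3 (TMM scaling, filterByExpr, robust quasi-likelihood, 1 mean for each of the 4 groups, all 10 libraries), which left 15916 of 52636 genes. Genes were called at a Benjamini-Hochberg adjusted p of 0.05. Log2 CPM used a prior count of 2, and the floor is 3 counts per library, which covers counting error only. Alternatives used DESeq2 1.42.0 and limma 3.58.1, other filters and scalings, a replicate term, and leaving out each library. The code was tested on simulated data. Values of some single genes are not reported here. The 3 genes of the ribosomal RNA locus held 8.495% to 14.26% of the counts of a day 5 library.

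The comparison, the gene lists and the rule for naming genes were chosen with earlier results of these data known. The rule names the vector and sort genes and the heme enzymes. For called genes whose log2 CPM averaged 3 or more it names the 10 largest changes and the 10 with the smallest p in each direction, predicted gene models left out, and the 6 with the largest off library difference in each direction. Of each list it names up to 5 called genes of smallest p. After the values were seen, the ribosomal protein list was narrowed, its pseudogenes were split off and the endoplasmic reticulum list was added. Names and positions come from GENCODE M21, matched for 52489 genes, and promoters from RefSeq (GRCm38.p6) where its start lay within 1000 bases of the GENCODE start.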

Additional observations from a re-analysis of the deposited data

Results flagged for a closer look

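In 12 of the 77 genes called at day 5, the off effect itself differed between the days (edgeR interaction term, Benjamini-Hochberg over all genes), against 3.06% of all genes. Values are the log2 fold change at day 14 minus that at day 5, from separate libraries at each day.

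Of the rises at day 5, 6 were larger at day 14. The difference was 3.73 for Gm45774 (adjusted p = 0.00247), which overlaps Mt2 on the other strand. It was 2.42 for 1190002N15Rik (0.0106), 2.20 for Tada2a (0.0136), 1.80 for Cenpv (0.044), 1.69 for Sfxn1 (0.048) and 1.46 for Slc11a2 (0.0317).

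Both other rises were smaller at day 14. Id1, an inhibitor of helix-loop-helix transcription factors, was at 5.16 and 4.30 CPM off and 1.12 and 0.60 on at day 5, a log2 fold change of 2.49, and the fold change was −0.17 at day 14 (difference −2.66, adjusted p = 0.039). Samsn1 went from 1.20 to 0.42 (difference −0.78, adjusted p = 0.0496).

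Among the falls, Cd276 went from −2.77 to −6.94 (difference −4.16, adjusted p = 0.0107) and Serpinb1a from −1.27 to −2.61 (difference −1.34, adjusted p = 0.0301). The mitochondrial tRNA gene mt-Ty went from −1.57 to 0.27 (difference 1.84, adjusted p = 0.0288), and the gene model Gm37612 from −0.81 to 0.04 (difference 0.85, adjusted p = 0.0463).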

How the results depend on the processing

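The 77 day 5 calls (59 higher, 18 lower) became 992 (558 and 434) without a filter on low counts, 472 (310 and 162) with DESeq2, and 3 (3 and 0) when tested against a 1.5-fold change. They became 0 with limma voom (2323 genes at an unadjusted p under 0.05) and 0 with the day 5 libraries alone (1294). Leaving out each library in turn gave 0 to 304 calls (0 to 133 higher, 0 to 171 lower). The low counts came without day 14 off replicates 1 to 4 (0, 9, 9 and 0), day 5 off replicate 2 (2) and day 5 on replicate 2 (9), and the high ones without day 5 off replicate 1 (145) and day 5 on replicate 1 (304). With a replicate block, day 5 had 225 calls (142 and 83). The labels do not say that the numbers pair libraries. The replicate 1 minus replicate 2 deviations of the off libraries and of the on libraries correlated at 0.203 across genes. The difference between the days was called in 487 genes, in 1957 without a filter, 1327 with DESeq2, 1521 with the replicate block, and 106 to 965 with single libraries left out. RLE scaling, filtering at 5 CPM, thinning, and leaving out ribosomal RNA or noncoding genes kept the day 5 count within 1.5 times. The cause of these changes was not tested, beyond the smaller number of libraries where some were left out.

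The erythroid median of 2.13 ranged from 0.95 (without day 5 off replicate 2) to 2.76 with single libraries left out, and the heme synthesis median of 0.25 from 0.25 to 0.58 (without day 5 off replicate 1), with 0.49 without day 5 on replicate 1. No called gene changed sign under any setting. Of 51 list medians, 29 changed sign under at least 1 setting, all but 7 of them within 0.2 of 0 as reported. The 7 were the B cell, dendritic, globin, granulocyte progenitor, interferon, mast cell and histone lists, each when a day 5 library was left out. Depth limits genes near the floor of 3 counts, such as Cd6, Gp5 and Tmem56.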

Other observations

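Interferon-stimulated genes were lower off in 8 of 37 tested and higher in 0 at an unadjusted p under 0.05. The shares over all genes were 7.67% lower and 7.25% higher. None of the 37 was called by edgeR or DESeq2, and the median was −0.24. It was −0.65 without off replicate 1, −0.03 without off replicate 2 and 0.13 without on replicate 1. Of 16 immediate early genes, 3 were higher and 0 lower (median 0.32). The p53 targets had 3 of 11 higher (1 called by DESeq2, median 0.09), the BCL2 family 3 of 14 (0.13) and the NRF2 targets 2 of 10 (2 called by DESeq2, 0.31), and the lists of RAS and MAPK output (0.12), MYC targets (−0.10), respiratory complex I (0.01), glycolysis (0.04) and cholesterol and fatty acid synthesis (0.12) had medians near that of all genes.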
